A study of Homo sapiens with 27 samples.

Results

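The 10 transcription factors described here are BCL6, BACH2, IRF8, PRDM1, IRF4, PAX5, EBF1, POU2AF1, POU2F2 and SPIB, which control the germinal centre and plasma cell programmes of B cells. They were chosen by name, with earlier results of these data known, and 10 of 10 were found among the 27115 genes of the deposited tables. Karpas422, OCI-Ly1 and HBL1 are established lines of diffuse large B-cell lymphoma (DLBCL), which the study took as models of the OXPHOS, germinal centre B-cell-like and activated B-cell-like subtypes, with 1 line for each. Each line carried shCTRL, shSIRT3-1 or shSIRT3-2 for 8 days, and 3 replicates of each of the 9 groups gave 27 libraries of total RNA. The shRNAs were delivered with a lentiviral vector, so the shCTRL cells carried the vector too, with a scrambled hairpin. The labels do not say whether the replicates were separate cultures, so the p-values measure the spread between these libraries, which may be technical.

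BCL6 is the repressor that holds B cells in the germinal centre state, and BACH2 and IRF8 act beside it. PRDM1 encodes BLIMP1, the repressor that ends the B-cell programme when a B cell becomes a plasma cell, and IRF4 activates PRDM1 and represses BCL6 in that transition. BCL6 and BACH2 in turn repress PRDM1. PAX5 and EBF1 fix B-lineage identity, POU2F2 (OCT2) and its coactivator POU2AF1 (OCA-B) act at octamer sites such as those of immunoglobulin promoters, and SPIB is an ETS factor that can bind DNA together with IRF4 or IRF8. In DLBCL, IRF4 and SPIB are known for high expression in the activated B-cell-like subtype, and BCL6 and PRDM1 are recurrent targets of genetic lesions.

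Expression was read as CPM, reads on a gene scaled to a library total set by the authors. Between 28694398 and 53405456 reads per library fell on genes, so that 3 reads, the smallest count read here as a level, stood for 0.0249 to 0.0472 CPM. SIRT3, the target of the shRNAs, ran from 9.14 to 16.4 CPM in the shCTRL libraries and from 1.06 to 6.24 CPM in the knockdown libraries, with no overlap. The B-cell markers CD79A, CD79B and MS4A1 were expressed in every library, at a sum of 690.2 to 1701 CPM. Of 5 fibroblast markers DCN alone reached 1 CPM in Karpas422, where the sum of the list was 401 to 423 CPM with shCTRL, 144 to 292 CPM with shSIRT3-1 and 104 to 280.0 CPM with shSIRT3-2, and COL1A2 alone reached it in HBL1, where the sums were 13.2 to 15.5, 1.81 to 5.80 and 37.1 to 62.6 CPM. COL1A1, COL3A1 and PDGFRA stayed under 1 CPM in every library. Of 5 T-cell markers CD3D and CD3G reached 1 CPM in Karpas422, with sums of 18.5 to 43.3 CPM, and in OCI-Ly1 and HBL1 the sums were at most 0.103 CPM. Sums of 6 myeloid markers were at most 1.10 CPM in every library, and of 5 epithelial markers EPCAM alone reached 1 CPM, in HBL1. The part of these markers in the results was not tested. A pair of libraries stood apart from their replicates. HBL1 shSIRT3-1 replicate 3 did so in PAX5, IRF4, SPIB and POU2F2, and had the lowest share of reads on genes, 40.3% of the total. Karpas422 shSIRT3-2 replicate 3 did so most in PRDM1, and also held the lowest BCL6, PAX5, POU2AF1, POU2F2 and SPIB of its group. Results that rest most on these libraries are given with and without them. Each call within a line reported below was kept with either library left out.

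Levels in the shCTRL cells were compared first, since they set what a knockdown could change. Values per kb of exon allow genes to be ordered within a line, and values in CPM allow 1 gene to be compared between lines. In Karpas422 the highest level per kb was that of BCL6 at 125 ± 9.53 CPM per kb (SD, n = 3), followed by POU2AF1 at 92.4 ± 0.898 (SD, n = 3), and POU2F2 at 46.6 ± 2.62 and PAX5 at 45.6 ± 5.81 (SD, n = 3 each) did not differ beyond their spread. In OCI-Ly1 the order began with POU2AF1 at 96.0 ± 6.68 and BCL6 at 43.5 ± 2.92 CPM per kb (SD, n = 3 each). SPIB, BACH2, PAX5 and IRF8 followed at 25.7 ± 4.21, 24.0 ± 2.28, 21.6 ± 0.141 and 20.8 ± 1.36 CPM per kb (SD, n = 3 each), and neighbours among these 4 overlapped. In HBL1 SPIB led at 92.0 ± 7.39 CPM per kb (SD, n = 3), and IRF4 at 63.4 ± 5.35, PAX5 at 60.1 ± 3.0 and POU2AF1 at 57.1 ± 5.50 (SD, n = 3 each) lay within each other's spread. IRF8 at 28.7 ± 2.74, SPIB at 16.8 ± 6.75 and EBF1 at 16.6 ± 0.477 CPM per kb (SD, n = 3 each) came next in Karpas422, where SPIB and EBF1 overlapped, and BACH2 was at 3.73 ± 1.09 (SD, n = 3). The lowest levels per kb were those of PRDM1 and IRF4 in Karpas422 and OCI-Ly1, and of PRDM1 at 0.848 ± 0.296 CPM per kb (SD, n = 3) in HBL1. The plot of levels in control cells shows that the lines differed most in IRF4, PRDM1, POU2F2 and BACH2.

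**Figure D1:**
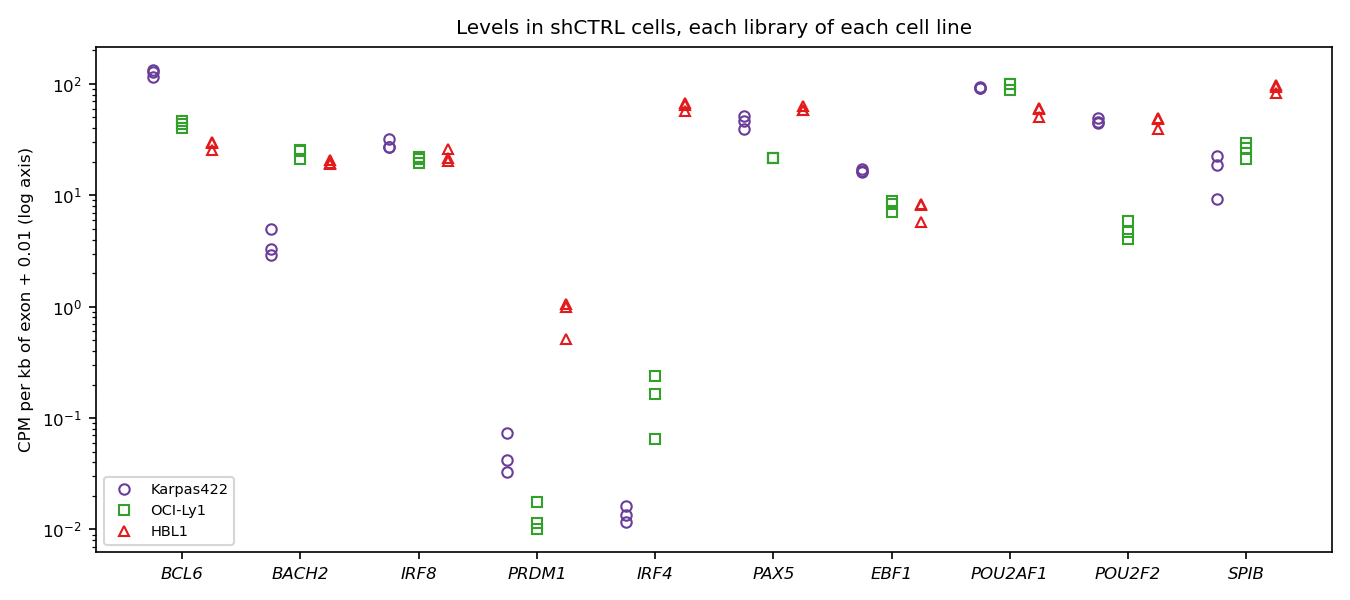
Levels of the 10 factors in shCTRL cells, as CPM per kb of exon plus 0.01 on a log axis, with 1 point for each of 3 libraries in Karpas422, OCI-Ly1 and HBL1. IRF4 lies at 63.4 CPM per kb in HBL1 against 0.146 in OCI-Ly1, POU2F2 is low in OCI-Ly1 alone, and BACH2 is low in Karpas422 alone.

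Calls came from limma fits on log2(CPM + 0.1) and needed both an adjusted p (Benjamini-Hochberg, over all genes tested) under 0.05 and a change of more than 1.5-fold. Between control cells 7 of 10 factors were called for HBL1 against Karpas422 (54.6% of all genes tested were called), 7 for HBL1 against OCI-Ly1 (54.6%) and 8 for Karpas422 against OCI-Ly1 (50.8%). Each count includes PRDM1 and IRF4, which passed the filter of 1 CPM in 3 libraries through HBL1. PRDM1 in OCI-Ly1 and IRF4 in Karpas422 lay near the level of 3 reads, so differences from these levels have a direction but no readable size. IRF4, with 343 to 405 CPM in HBL1, had 0.331 to 1.36 CPM in OCI-Ly1, a log2 difference of 8.78 (standard error 0.36, adjusted p = 5.56e-09). Karpas422 had 0.00930 to 0.0375 CPM of IRF4, at or near the level of 3 reads, so no fold is given. PRDM1 was at 3.43 to 7.09 CPM in HBL1, at 0.152 to 0.427 CPM in Karpas422 and at 0 to 0.0519 CPM in OCI-Ly1. POU2F2 had 406 to 449.8 CPM in Karpas422 and 359.8 to 451 CPM in HBL1, which overlapped, against 36.5 to 52.9 CPM in OCI-Ly1 (log2 differences of 3.28 and 3.26, standard error 0.15 each, adjusted p = 1.84e-08 and 1.48e-08). BACH2 was the reverse of BCL6 between Karpas422 and OCI-Ly1. Karpas422 had 31.8 to 54.1 CPM of BACH2 against 232 to 278 CPM in OCI-Ly1 (log2 difference −2.72, standard error 0.18, adjusted p = 2.91e-07), and 682 to 793 CPM of BCL6 against 240.4 to 275 CPM (log2 difference 1.53, standard error 0.13, adjusted p = 1.87e-06). SPIB stood at 358 to 418 CPM in HBL1, above the 39.7 to 95.9 CPM of Karpas422 and the 90.4 to 126 CPM of OCI-Ly1. IRF8 was called between no pair of lines, with 152 to 249.8 CPM across the 9 control libraries.

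The knockdown comparisons asked which of these factors changed with loss of SIRT3. Over the 3 lines in an additive model, shSIRT3-1 changed 1 of 10 factors (BACH2, lower) where 13% of all genes tested were called, and shSIRT3-2 changed 3 of 10 (BCL6 and BACH2 lower, PRDM1 higher) where 13.5% were called. Both comparisons share the 9 shCTRL libraries. The factors that were not called ranged from −0.46 (PAX5, adjusted p = 0.0505) to 0.90 (PRDM1, adjusted p = 0.231) with shSIRT3-1 and from −0.55 (PAX5, adjusted p = 0.0200) to 0.11 (POU2F2, adjusted p = 0.398) with shSIRT3-2, as log2 fold changes. Without HBL1 shSIRT3-1 replicate 3 the shSIRT3-1 value of PAX5 was −0.30 (adjusted p = 0.105), that of POU2AF1 −0.13 in place of −0.22, that of POU2F2 0.11 in place of 0.04, that of SPIB 0.17 in place of 0.02 and that of IRF4 0.01 in place of −0.18, none of them called. The median log2 fold change of the 10 factors was −0.26 with shSIRT3-1 and −0.38 with shSIRT3-2, beside medians of −0.05 and −0.03 over all genes tested. Among all called genes 69.9% and 75.6% were lower, against 54.4% and 59.2% once the libraries had been quantile-normalized, which moved the median of all genes in HBL1 with shSIRT3-1 from −0.11 to 0.04. Within HBL1 lower genes were 68.0% of the calls with either shRNA and 49.0% and 49.3% after quantile normalization, and within Karpas422 they were 72.1% with shSIRT3-1, 53.7% after it and 59.5% after median-ratio scaling. The called factors named below kept their direction under quantile normalization. In RNA from a whole culture, fewer cells of a type and less RNA per cell cannot be told apart.

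**Figure D2:**
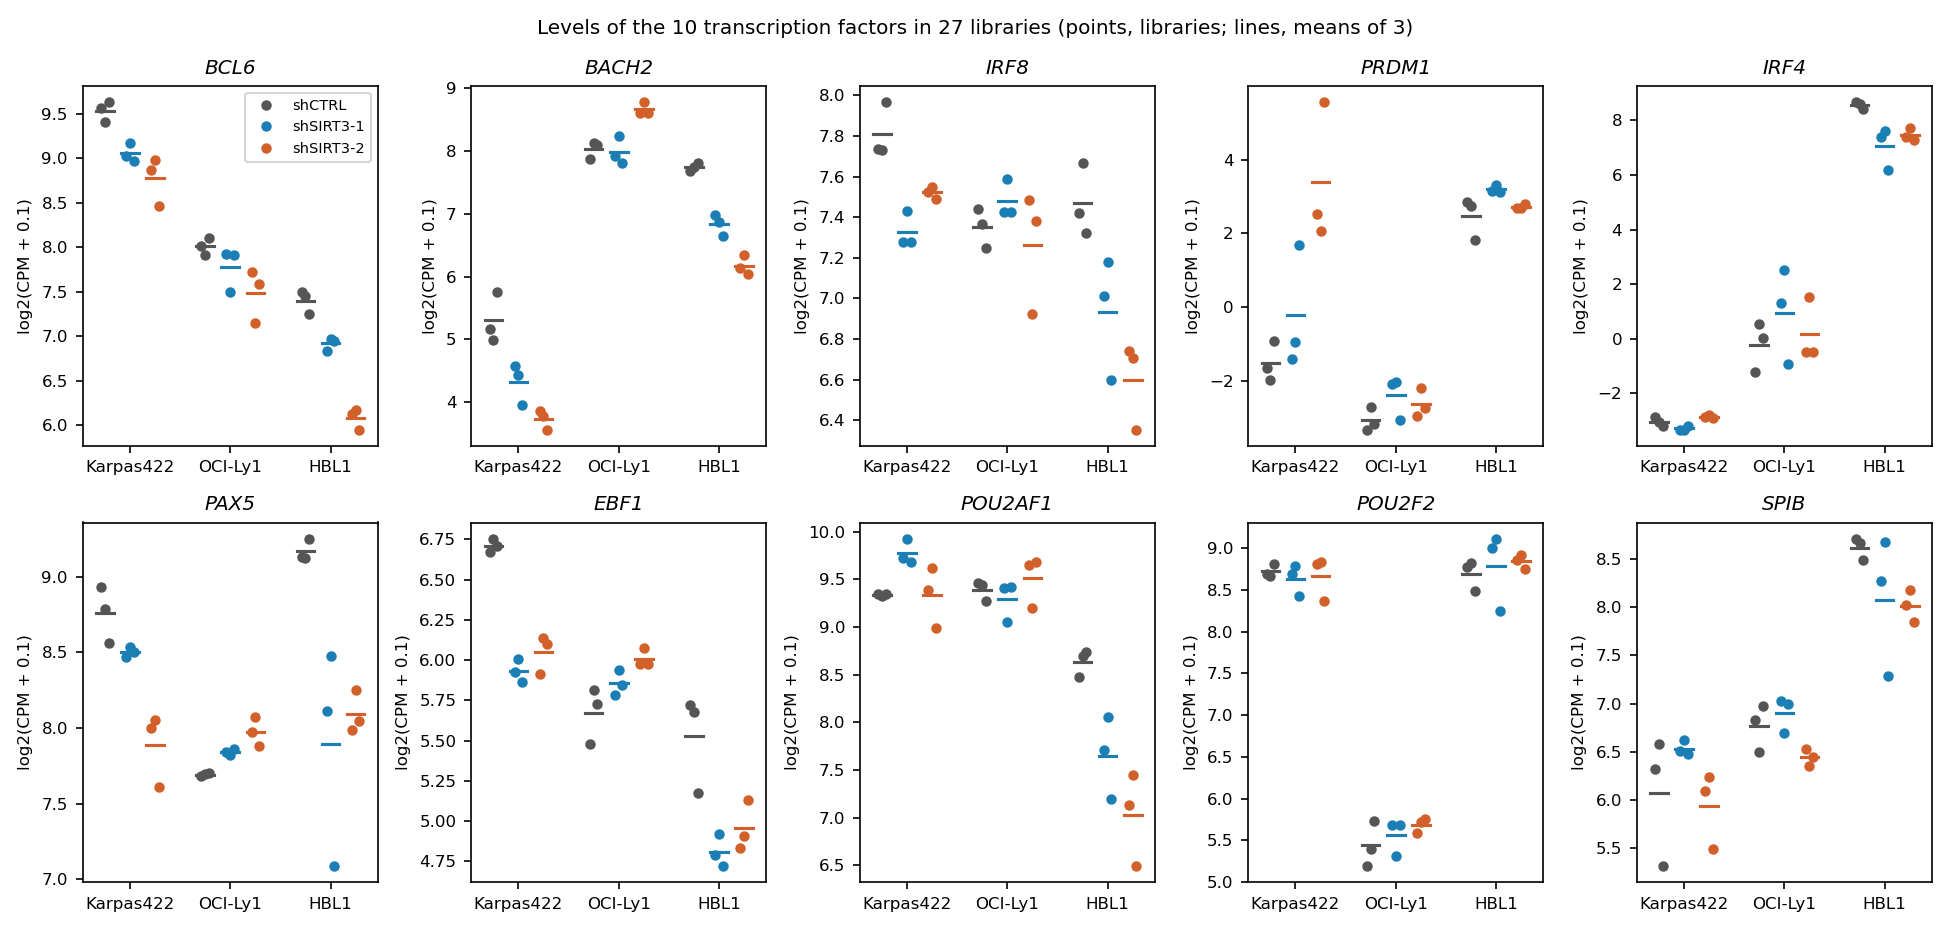
Level of each factor in all 27 libraries as log2(CPM + 0.1), by cell line and shRNA (grey shCTRL, blue shSIRT3-1, orange shSIRT3-2), with a point for each library and a line at the mean of 3. BCL6 steps down from shCTRL to shSIRT3-2 in each line, and BACH2 falls in Karpas422 and HBL1 but not in OCI-Ly1.

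BCL6, at chr3:187439165-187463513 of hg19 on the minus strand, was below the mean of its line's controls in 18 of 18 knockdown libraries. In Karpas422 the shCTRL libraries had 758, 682 and 793 CPM, the shSIRT3-1 libraries 522, 579 and 501 CPM and the shSIRT3-2 libraries 467, 507 and 354 CPM. In OCI-Ly1 the values were 259, 240.4 and 275 CPM with shCTRL, 243, 181 and 241 CPM with shSIRT3-1 and 211, 142 and 193 CPM with shSIRT3-2. In HBL1 they were 180.1, 175 and 153 CPM with shCTRL, 114, 125 and 123 CPM with shSIRT3-1 and 69.6, 72.0 and 61.7 CPM with shSIRT3-2. Knockdown and control libraries did not overlap in 5 of 6 comparisons, and the exception was shSIRT3-1 in OCI-Ly1. Groups did not overlap for 30.9% to 60.9% of all genes tested in these 6 comparisons. With shSIRT3-2 BCL6 fell by 0.87 on the log2 scale over the 3 lines (standard error 0.11, adjusted p = 1.33e-06, limma), by 0.76 in Karpas422 (standard error 0.15, adjusted p = 0.00455) and by 1.32 in HBL1 (standard error 0.10, adjusted p = 8.63e-05). Its log2 fold change in OCI-Ly1 was −0.52 (standard error 0.17, adjusted p = 0.0782) and was not called. With shSIRT3-1 BCL6 differed over the 3 lines by −0.40 on the log2 scale (standard error 0.11, adjusted p = 0.00447), which passed the p but not the fold threshold. The Karpas422 call was lost without replicate 1 and without replicate 3 of the groups. It was kept when shSIRT3-2 replicate 3, the lowest of that group, was left out alone.

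BACH2, a repressor that delays plasma cell differentiation at chr6:90636247-91006562 on the minus strand, was the 1 factor called with both shRNAs over the 3 lines. Its CPM in Karpas422 was 35.9, 31.8 and 54.1 with shCTRL, 23.8, 21.6 and 15.5 with shSIRT3-1 and 14.4, 13.6 and 11.8 with shSIRT3-2. In HBL1 it was 206, 213 and 224 with shCTRL, 127, 117 and 99.5 with shSIRT3-1 and 70.0, 81.4 and 65.9 with shSIRT3-2. In OCI-Ly1 it was 232, 278 and 273 with shCTRL, 241, 301 and 224 with shSIRT3-1 and 389, 436 and 389 with shSIRT3-2. Every knockdown library lay below every control in Karpas422 and HBL1, while in OCI-Ly1 the shSIRT3-1 libraries overlapped the controls and the shSIRT3-2 libraries lay above them. Groups did not overlap for 47.0% to 60.9% of all genes tested in Karpas422 and HBL1, and for 33.3% in OCI-Ly1 with shSIRT3-2. BACH2 fell by 0.98 and 1.58 in Karpas422 with shSIRT3-1 and shSIRT3-2 (standard error 0.21 each, adjusted p = 0.00684 and 0.000811), had log2 fold changes of −0.91 and −1.57 in HBL1 (standard error 0.12 each, adjusted p = 0.000720 and 8.05e-05), and rose by 0.64 in OCI-Ly1 with shSIRT3-2 (standard error 0.13, adjusted p = 0.0244), all on the log2 scale. The additive log2 fold changes, −0.64 with shSIRT3-1 (standard error 0.22, adjusted p = 0.0255) and −0.84 with shSIRT3-2 (standard error 0.22, adjusted p = 0.00492), therefore average unlike responses. Without Karpas422 or without HBL1 neither was called (adjusted p from 0.194 to 0.228), and without OCI-Ly1 they were −0.95 and −1.57. The shSIRT3-1 call over the 3 lines was also lost after quantile normalization (log2 fold change −0.56) and without each replicate number in turn (−0.76 to −0.42), the Karpas422 call with shSIRT3-1 without replicate 3, and the OCI-Ly1 call without replicate 1 and without replicate 3.

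IRF8, which is expressed through the germinal centre stage and lies at chr16:85932722-85956212 on the plus strand, was called in 1 of 6 comparisons within a line. In HBL1 its CPM was 171, 203 and 159.8 with shCTRL, 129, 145 and 96.9 with shSIRT3-1 and 107, 104 and 81.8 with shSIRT3-2. Both knockdown groups lay below the controls, and IRF8 fell by 0.87 on the log2 scale with shSIRT3-2 (standard error 0.17, adjusted p = 0.00547), a call that was lost without replicate 1 and without replicate 2. In Karpas422, with 213, 212 and 249.8 CPM in control cells, it was at 155 to 172 CPM with shSIRT3-1 and 179.7 to 187 CPM with shSIRT3-2, differences that passed the p but not the fold threshold (log2 −0.48 and −0.29, standard error 0.09 each, adjusted p = 0.00442 and 0.0406). In OCI-Ly1 the 3 groups overlapped, between 121 and 193 CPM.

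PRDM1, at chr6:106441338-106557814 on the plus strand, went the other way. In Karpas422 it was at 0.216, 0.152 and 0.427 CPM with shCTRL, at 0.279, 0.421 and 3.13 CPM with shSIRT3-1 and at 5.70, 4.12 and 46.9 CPM with shSIRT3-2. The shSIRT3-2 libraries all lay above the controls, and replicate 3 held the highest value in each of the 3 groups. PRDM1 rose by 4.91 on the log2(CPM + 0.1) scale (standard error 0.96, adjusted p = 0.00489, limma), and by 3.83 (adjusted p = 0.00774) without shSIRT3-2 replicate 3. No control library reached 1 CPM, so PRDM1 passed the filter in Karpas422 only through knockdown libraries, chiefly those of shSIRT3-2. Its p thus belongs to a gene that was tested because that group was high. The call was kept without the filter, and without replicate 3 of all groups PRDM1 was not tested. With shSIRT3-1 the log2 difference was 1.31 (standard error 0.96, adjusted p = 0.318) and the groups overlapped. In HBL1, with 7.09, 6.65 and 3.43 CPM in control cells, PRDM1 was at 8.70, 9.85 and 8.69 CPM with shSIRT3-1 and at 6.32, 6.29 and 6.80 CPM with shSIRT3-2. It was called higher with shSIRT3-1 (log2 0.72, standard error 0.25, adjusted p = 0.0441), which was lost without a filter on low values, in a model of all 9 groups and without each replicate number in turn, and with shSIRT3-2 the groups overlapped (log2 0.24, adjusted p = 0.473). In OCI-Ly1 no library had more than 0.144 CPM and PRDM1 did not pass the filter of 1 CPM in 3 libraries. Over the 3 lines the shSIRT3-2 difference was 1.87 (standard error 0.59, adjusted p = 0.0142), 1.31 (adjusted p = 0.0206) without Karpas422 shSIRT3-2 replicate 3, and 0.34 (adjusted p = 0.237) without Karpas422.

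IRF4, at chr6:391739-411443 on the plus strand, was abundant in HBL1 alone among the 3 lines. There it was at 405, 388 and 343 CPM with shCTRL, at 168, 195 and 72.7 CPM with shSIRT3-1 and at 169.8, 212 and 157 CPM with shSIRT3-2. All 6 knockdown libraries lay below the controls, in a line where groups did not overlap for 50.9% and 60.9% of all genes tested. IRF4 was called lower with shSIRT3-1 (log2 −1.498, standard error 0.32, adjusted p = 0.00687), and also (log2 −1.06, adjusted p = 0.000551) without the library shSIRT3-1 replicate 3. It fell by 1.08 with shSIRT3-2 (standard error 0.32, adjusted p = 0.0302), a call that was lost in a model of all 9 groups and without replicate 1 or replicate 2, and the shSIRT3-1 call was lost without replicate 1. In OCI-Ly1 IRF4 ranged from 0.331 to 5.61 CPM with overlap of all 3 groups, and in Karpas422 it stayed at or under 0.0464 CPM and was not tested. PRDM1 and IRF4, which are both known for the plasma cell programme, thus had called differences of opposite sign in HBL1 with shSIRT3-1. The PRDM1 call was lost in 5 of 14 alternative fits, and PRDM1 was not called in HBL1 with shSIRT3-2.

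PAX5, which maintains B-cell identity and lies at chr9:36833266-37034265 on the minus strand, was called lower in HBL1 with both shRNAs and in Karpas422 with shSIRT3-2. In HBL1 its CPM was 561, 556 and 608 with shCTRL, 276, 356 and 136 with shSIRT3-1 and 253, 304 and 265 with shSIRT3-2. It fell by 1.28 and 1.07 on the log2 scale (standard error 0.30 each, adjusted p = 0.00966 and 0.0225), and by 0.87 with shSIRT3-1 when replicate 3 of that group was left out (adjusted p = 0.000834). The shSIRT3-1 call was lost without replicate 1, and the shSIRT3-2 call without replicate 1 and without replicate 2. In Karpas422 the control libraries had 489, 442 and 378 CPM, and the shSIRT3-2 libraries had 256, 266 and 196 CPM. The shSIRT3-2 libraries were lower by a log2 difference of −0.87 (standard error 0.14, adjusted p = 0.00185). That call was lost without replicate 1 and kept without shSIRT3-2 replicate 3 alone, the lowest of that group. The shSIRT3-1 libraries of Karpas422, at 354, 370.4 and 362 CPM, also lay below the controls, but their log2 difference of −0.26 (standard error 0.14, adjusted p = 0.173) was not called. In OCI-Ly1 all 6 knockdown libraries, at 226 to 268 CPM, lay above the controls at 205 to 208 CPM. The log2 differences of 0.15 and 0.28 (standard error 0.09 each, adjusted p = 0.302 and 0.0767) were not called. Groups did not overlap for 30.9% and 33.3% of all genes tested in this line.

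EBF1, a pioneer of the B lineage at chr5:158122928-158526924 on the minus strand, was called in Karpas422 with both shRNAs and in HBL1 with shSIRT3-1. In Karpas422 it was at 102, 108 and 105 CPM with shCTRL, at 60.8, 64.3 and 58.2 CPM with shSIRT3-1 and at 60.2, 70.2 and 68.4 CPM with shSIRT3-2. It fell by 0.78 and 0.66 (standard error 0.08 each, adjusted p = 0.000301 and 0.000644). In HBL1, with 52.7, 51.2 and 36.1 CPM in control cells, the knockdown libraries had 26.3 to 34.9 CPM, and EBF1 was called with shSIRT3-1 (log2 −0.72, standard error 0.16, adjusted p = 0.00708) but, at −0.57 (standard error 0.16, adjusted p = 0.0210), was under the fold threshold with shSIRT3-2. The HBL1 call was lost without replicate 1 and without replicate 2. In OCI-Ly1 EBF1 was at 44.5 to 56.3 CPM with shCTRL and at 55.0 to 67.2 CPM in the knockdown libraries, and was not called.

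POU2AF1, at chr11:111222980-111326355 on the minus strand, was called in HBL1 alone. There it was at 355, 416 and 427 CPM with shCTRL, at 209, 266 and 146 CPM with shSIRT3-1 and at 139.9, 175 and 90.0 CPM with shSIRT3-2. It fell by 0.99 and 1.61 (standard error 0.27 each, adjusted p = 0.0192 and 0.00254), and by 0.76 (adjusted p = 0.0334) with shSIRT3-1 without replicate 3 of that group. The shSIRT3-1 call was lost without replicate 1 and without replicate 2, and the shSIRT3-2 call without replicate 1. In Karpas422 POU2AF1 was at 639 to 652 CPM in control cells and at 821 to 971 CPM with shSIRT3-1, above every control, but the log2 difference of 0.44 (standard error 0.16, adjusted p = 0.0579) was not called.

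POU2F2, at chr19:42590262-42700737 on the minus strand, and SPIB, at chr19:50922195-50934571 on the plus strand, were called in 0 of the 6 comparisons within a line by limma or by edgeR. The unadjusted p was under 0.05 in 0 of them for POU2F2 and in 1 for SPIB (OCI-Ly1 with shSIRT3-2). POU2F2 groups overlapped in 6 of 6 comparisons, with log2 fold changes of −0.09 to 0.25. In HBL1 the shSIRT3-1 libraries had 512, 553 and 304 CPM of POU2F2 beside 439.6, 451 and 359.8 CPM with shCTRL, and without replicate 3 of that group the log2 difference was 0.36 (adjusted p = 0.0297) in place of 0.09. SPIB in HBL1 was at 418, 405 and 358 CPM with shCTRL, at 309.7, 408 and 156 CPM with shSIRT3-1 and at 259.6, 289 and 230.2 CPM with shSIRT3-2. The shSIRT3-2 libraries lay below the controls with a log2 difference of −0.60 (standard error 0.30, 95% interval −1.28 to 0.07, adjusted p = 0.148), and it passed the call (adjusted p = 0.00411) without shSIRT3-1 replicate 3, whose spread enters the same fit. For neither gene does the missed threshold show that the level was equal.

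**Figure D3:**
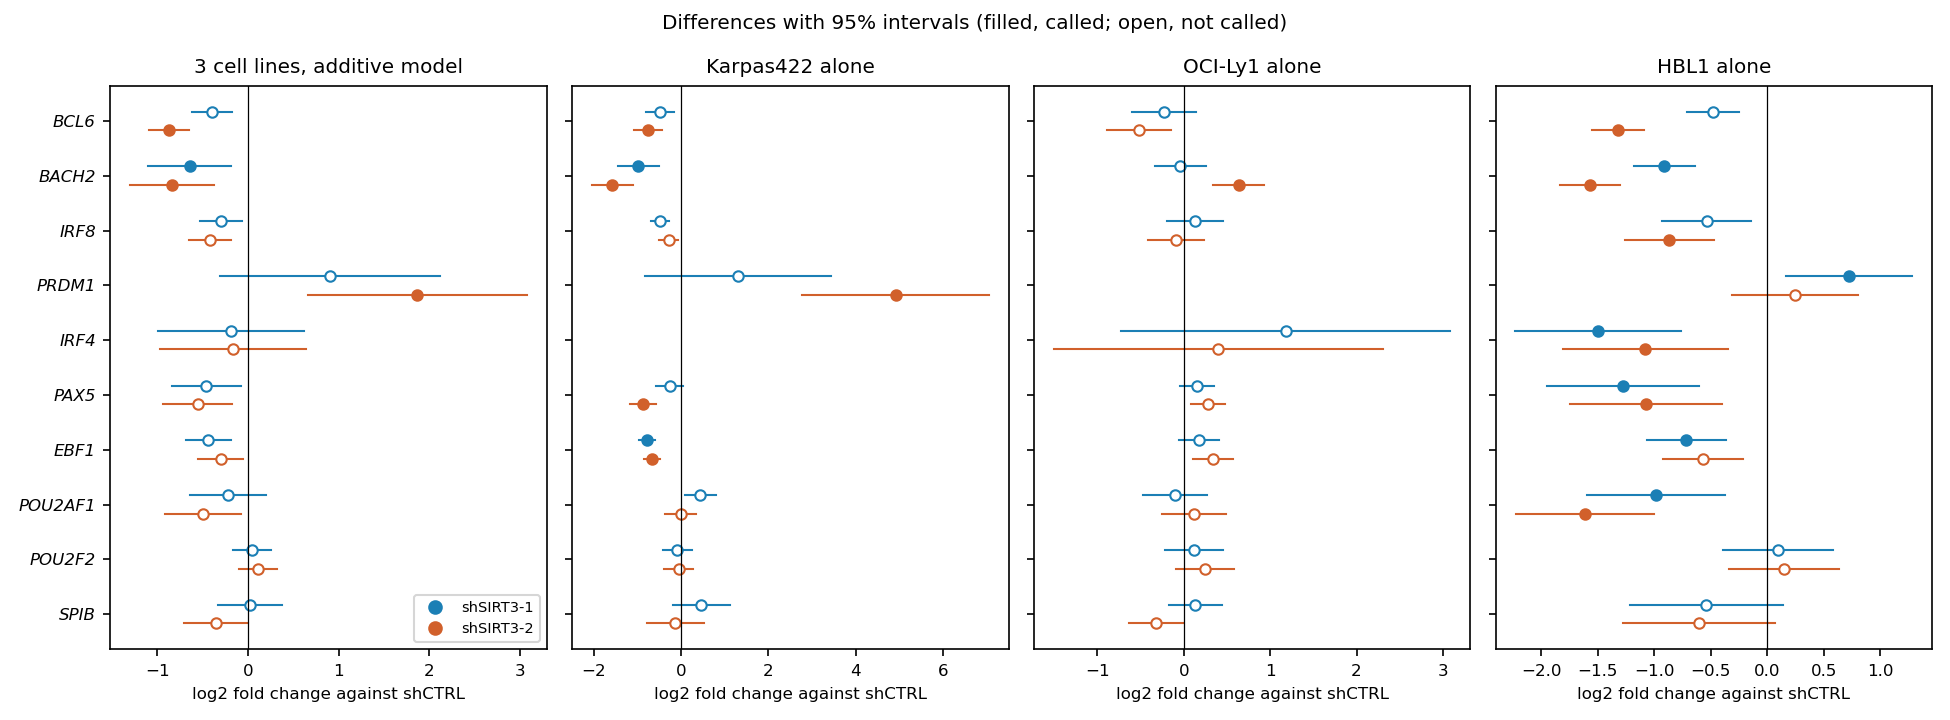
Log2 fold changes against shCTRL with 95% intervals for shSIRT3-1 (blue) and shSIRT3-2 (orange) over the 3 lines and in each line alone, where filled points passed the call and each panel has its own axis. HBL1 and Karpas422 hold the called falls, OCI-Ly1 holds 1 called rise (BACH2), and PRDM1 in Karpas422 with shSIRT3-2 is the furthest point from 0 at 4.91.

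By line, shSIRT3-1 and shSIRT3-2 changed 2 and 5 of the 9 factors tested in Karpas422 (16% and 15% of all genes tested were called). They changed 0 and 1 of the 9 tested in OCI-Ly1 (4.5% and 6.41%) and 6 and 6 of 10 in HBL1 (27.7% and 23.5%). Of these 20 calls 17 were lower and 3 higher, and 2 of the higher calls were PRDM1. The median log2 fold change of the factors tested was −0.26 and −0.29 for Karpas422, 0.13 and 0.25 for OCI-Ly1, −0.63 and −0.97 for HBL1, beside medians over all genes between −0.11 and 0.02. Within a line both shRNAs share the 3 shCTRL libraries. For the 0 calls with shSIRT3-1 in OCI-Ly1, 0 of the 9 factors had an unadjusted p under 0.05 in limma and edgeR also called 0.

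Whether the response itself differed between the lines was tested with a limma F test on the interaction of cell line and shRNA. It passed for 7 of 10 factors, where 41.8% of all genes tested passed. BACH2 had the lowest adjusted p of the 10 (3.73e-06), with the shSIRT3-2 libraries above the controls in OCI-Ly1 and below them in the other lines. EBF1 (0.000244), POU2AF1 (0.000581), PAX5 (0.00129), PRDM1 (0.00217), IRF8 (0.0106) and BCL6 (0.0253) followed. BCL6 did not pass without replicate 3 (0.0627), nor IRF8 without replicate 2 (0.0512). IRF4 (0.105), SPIB (0.257) and POU2F2 (0.839) did not pass, although IRF4 did with a pseudocount of 1 (adjusted p = 0.0275) and without replicate 3 (adjusted p = 0.0400). Without replicate 1 BACH2 alone passed, at an adjusted p of 0.0183. In that fit 348 of 12860 genes tested passed, in place of 5471 of 13076, so most genes lost the call along with the other factors.

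The shRNAs were also compared with each other. With shSIRT3-2 against shSIRT3-1 over the 3 lines 0 of 10 factors were called, where 11.3% of all genes tested were called. BCL6 was lower with shSIRT3-2 by a log2 difference of −0.47 (95% interval −0.69 to −0.25, adjusted p = 0.00145), under the fold threshold, and was the 1 factor with an adjusted p under 0.05. The unadjusted p was under 0.05 for BCL6 and SPIB, and edgeR called 0 factors. For PRDM1 the interval of the difference ran from −0.24 to 2.17, so the fit over the 3 lines did not resolve whether the shRNAs differed. That fit averages the lines. In Karpas422 PRDM1 was at 4.12 to 46.9 CPM with shSIRT3-2 and at 0.279 to 3.13 CPM with shSIRT3-1. BACH2 in OCI-Ly1 was at 389 to 436 CPM with shSIRT3-2 and at 224 to 301 CPM with shSIRT3-1. Both were picked after their values were seen, and the difference between the shRNAs within a line was not tested. SIRT3 itself was higher with shSIRT3-2 than with shSIRT3-1 by a log2 difference of 1.08 (standard error 0.17, adjusted p = 4.57e-05).

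Sequence before the start sites was read for factors called in opposite directions in Karpas422, because the network works through binding at such sites. It is shown for PRDM1, called higher with shSIRT3-2, and for BACH2 and EBF1, which were called lower there with both shRNAs. PRDM1 passed the filter in Karpas422 only through knockdown libraries. RefSeq start sites of GRCh38.p14 covered 9 of 10 factors with 12 promoters, each searched over the 250 bases before the start on both strands, and the stretches were placed on hg19 by exact match. For each promoter shown, the longest stretch that no annotated exon covers is printed. Exons cover both BCL6 promoters whole, so neither could be shown. For BACH2 the stretch is 84 bases and exons cover 85 of the 250, so some bases free of exons are left out too. Sequences run 5′ to 3′ on the strand of the gene, and capitals mark matches.
PRDM1 before the first start site, chr6:106533961-106534194, plus strand: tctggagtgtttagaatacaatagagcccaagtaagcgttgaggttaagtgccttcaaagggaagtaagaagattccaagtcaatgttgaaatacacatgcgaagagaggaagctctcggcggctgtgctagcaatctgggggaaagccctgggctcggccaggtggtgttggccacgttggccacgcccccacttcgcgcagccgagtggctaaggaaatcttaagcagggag
PRDM1 before the second start site, chr6:106546597-106546799, plus strand: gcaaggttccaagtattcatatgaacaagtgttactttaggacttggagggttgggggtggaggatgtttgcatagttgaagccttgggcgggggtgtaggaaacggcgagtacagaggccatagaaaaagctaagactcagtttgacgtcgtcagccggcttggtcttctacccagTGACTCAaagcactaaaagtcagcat
EBF1, chr5:158524965-158525214, minus strand: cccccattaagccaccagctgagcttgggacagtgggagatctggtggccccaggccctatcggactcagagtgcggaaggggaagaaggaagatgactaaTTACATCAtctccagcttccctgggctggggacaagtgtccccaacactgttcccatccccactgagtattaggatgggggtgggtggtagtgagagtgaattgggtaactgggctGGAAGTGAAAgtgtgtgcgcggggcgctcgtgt
BACH2, chr6:91006729-91006812, minus strand: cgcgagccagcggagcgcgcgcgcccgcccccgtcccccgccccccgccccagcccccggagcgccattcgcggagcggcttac
The letters TGANTCA, the core shared by AP-1 and by the MAF recognition elements that BACH2 can bind, were in 2 of 12 promoters, PRDM1 before its second start site (bases 42 to 36 before the start) and BCL6 before its second (bases 77 to 71), and in 6.57% of 35116 promoters of all genes. EBF1 held TGATGNAA, the CARE motif of ATF4 with its partners, on the reverse strand at bases 149 to 142, which 3.14% of all promoters hold. It also held the ETS-IRF composite, the element of ETS factors such as SPIB with IRF4 or IRF8, on the forward strand at bases 33 to 24, which 2.41% of all promoters hold. The octamer ATGCAAAT (1.63% of all promoters), the palindromic EBF1 motif (1.06%) and the E-box CACGTG (6.34%) matched in 0 of the 12, and the matches found did not overlap each other. A match is a description of letters and no evidence of binding in these cells.

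Genes around these factors were read from lists written by hand, with earlier results of these data known. Their counts beside the shares over all genes are therefore a description and no independent comparison. Over all genes tested 9.09% were called lower and 3.92% higher with shSIRT3-1, and 10.2% and 3.29% with shSIRT3-2. Of 14 genes known to be repressed by BCL6 that were tested, 2 were called lower and 1 higher with shSIRT3-1, and 4 lower and 0 higher with shSIRT3-2. CDKN1A, the cell cycle inhibitor p21, was lower with both (log2 −1.27 and −1.66, standard error 0.37 each, adjusted p = 0.00886 and 0.00112). The other calls, named after their values were seen, were CHEK1 lower (−0.61) and GPR183 higher (1.18) with shSIRT3-1, and CCND2 (−1.55), CD80 (−0.64) and BCL2 (−0.65) lower with shSIRT3-2. The median of the list was −0.26 and −0.28, beside −0.05 and −0.03 over all genes. Among 8 BCL6 corepressors TBL1X, a subunit of the NCOR and SMRT complexes, was the 1 gene called, lower with both shRNAs (−1.38 and −1.09, standard error 0.31 each, adjusted p = 0.000985 and 0.00714).

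Of 13 plasma cell genes 6 were called lower and 0 higher with shSIRT3-1, and 5 lower and 1 higher with shSIRT3-2, and 5 were lower with both. The 3 with the largest mean change were TNFRSF17, the BCMA receptor of plasma cells (−1.62 and −1.33), ELL2, an elongation factor used for immunoglobulin secretion (−1.10 and −0.92), and XBP1, the factor of the secretory programme (−0.83 and −1.01). MZB1 and JCHAIN were also lower with both. SEC11C was lower with shSIRT3-1 alone (−0.74), and SDC1, which encodes the plasma cell marker CD138, was the higher call with shSIRT3-2 (1.15, adjusted p = 0.0113). The median of the list was −0.41 and −0.47. Of 9 germinal centre B-cell genes 1 was lower (FAS, −0.60) and 2 higher (SERPINA9, 1.28, and NEIL1, 0.66) with shSIRT3-1, and 0 were called with shSIRT3-2. In that comparison the unadjusted p was under 0.05 for 2 of the 9 (STAP1 and FAS) and edgeR called FAS. Of 10 B-cell identity genes, CD72 was higher with shSIRT3-1 (0.99), and CD22 (−2.12), FCRLA (−0.92) and VPREB3 (−0.84) were lower with shSIRT3-2. Of 14 other B-cell transcription factors, MEF2B, an activator of BCL6 in germinal centre B cells, was lower with both shRNAs (−1.43 and −2.09, standard error 0.32 each, adjusted p = 0.00098 and 1.9e-05), IKZF3 was lower (−0.72) and ID3 higher (0.82) with shSIRT3-2. All values in these lists are log2 fold changes over the 3 lines.

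These values average over the 3 lines, in which the share of all genes called also differed. With shSIRT3-1 and shSIRT3-2, 11.5% and 9.44% of all genes tested were called lower in Karpas422, and 4.45% and 5.55% higher. In OCI-Ly1 the shares were 2.45% and 4.26% lower and 2.04% and 2.15% higher. In HBL1 they were 18.8% and 16% lower and 8.83% and 7.51% higher, and each count below is to be read beside these shares. Of the germinal centre B-cell genes 2 of 9 were called lower in Karpas422 with shSIRT3-1 and 4 of 9 with shSIRT3-2, with 0 higher. In HBL1 4 of 7 were lower and 2 higher with shSIRT3-1, and 1 was lower and 0 higher with shSIRT3-2, while in OCI-Ly1 1 and 0 of 8 were lower and 0 higher. Of the 10 B-cell identity genes 7 were lower and 1 higher in HBL1 with shSIRT3-2 (median log2 fold change −1.13), against 2 lower and 3 higher with shSIRT3-1. In Karpas422 1 was lower and 1 higher with shSIRT3-1, and 3 were lower and 1 higher with shSIRT3-2. In OCI-Ly1 0 were lower and 2 higher with each shRNA. Plasma cell genes were lower with shSIRT3-1 and shSIRT3-2 for 4 and 3 of 9 in Karpas422 and for 7 and 3 of 11 in HBL1, beside 0 and 1 of 8 in OCI-Ly1, and 1 was higher in Karpas422 with shSIRT3-2 and 1 in HBL1 with shSIRT3-1. Genes known to be repressed by BCL6 were lower for 3 and 3 of 10 in Karpas422 and for 5 and 3 of 14 in HBL1, where 1 and 3 were higher, while 1 and 0 were higher in Karpas422. Of 9 tested in OCI-Ly1 0 were called with either shRNA, with an unadjusted p under 0.05 for 3 and 2, and edgeR called 0 and 1 (BCL2). Where limma called 0 of 8 genes in OCI-Ly1, the unadjusted p was under 0.05 for 4 plasma cell genes with shSIRT3-1 and for 1 germinal centre gene with shSIRT3-2, and edgeR called 0 of them. The differences of these lists between lines were not tested.

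**Figure D4:**
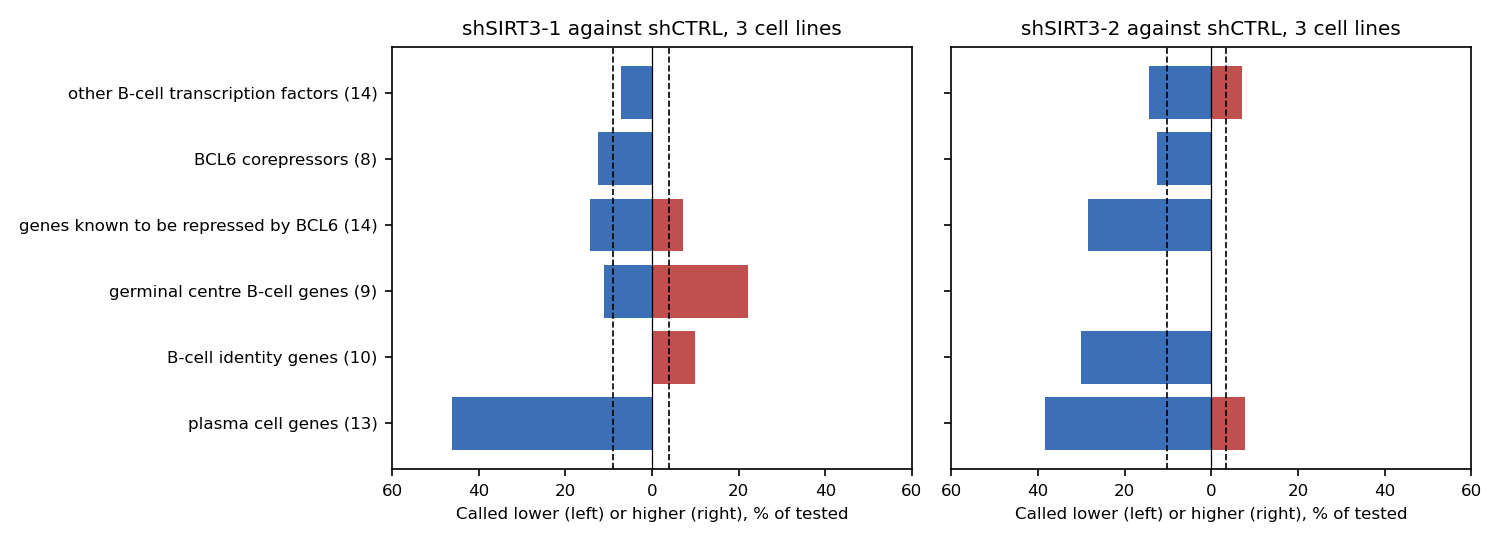
Share of the tested genes of each list that was called lower (blue, left) or higher (red, right) over the 3 lines, with the number tested in brackets and dashed lines at the shares over all genes. Plasma cell genes lie beyond the dashed line of lower calls with both shRNAs, with 6 and 5 of 13 lower. Genes known to be repressed by BCL6 (2 and 4 of 14 lower) and BCL6 corepressors (1 and 1 of 8) also lie beyond it with both. The lists were chosen with earlier results of these data known.

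The genes whose pattern was most like that of BACH2 over the 27 libraries, after the mean of each line was removed, were FOXP1 (Pearson r = 0.893), ARHGAP26 (r = 0.874) and RHOH (r = 0.855), out of 13075 genes. The libraries share their controls and their lines, so these values describe the pattern only.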

How the data were processed

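The 27 libraries hold total RNA sequenced in pairs from random-primed TruSeq libraries. The authors aligned reads with STAR to hg19 and counted RefSeq genes with Rsubread, per the labels and the methods of the study. The deposited values, although named FPKM, are CPM: all are whole multiples of 1 step in each library within 0.1 step, so the authors did not divide by gene length, and 40.3% to 45.6% of the total they divided by fell on genes. What that total counts is not given in the sources used here. Reads recovered from the steps served the count test.

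Tests used limma 3.58.1 in R 4.3.3 on log2(CPM + 0.1), with a variance trend, over genes at 1 CPM or more in at least 3 of the libraries fitted. These were 13076 genes over 27 libraries, 11235 in Karpas422, 11205 in OCI-Ly1, 11862 in HBL1 and 12607 in control libraries. The additive model held cell line and shRNA over all libraries, each line had a fit of its own, the interaction was an F test, and control lines were compared among the 9 shCTRL libraries. Fold changes on this scale understate changes of low genes. edgeR 4.0.16 with TMM on recovered reads was an alternative, as were other pseudocounts, filters, scalings, models and left-out libraries. Levels between genes are CPM per kb of annotated exon. The scripts were tested on simulated data. No pair of replicates matched within sampling noise, and the floor of 3 reads covers counting error only. The members and lists were chosen with earlier results of these data known. Genes of the lists were named if called in the same direction with both shRNAs, 3 at most per list by mean change, and others named were chosen after their values were seen. Some genes of the lists are not reported here.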

Additional observations from a re-analysis of the deposited data

Results flagged for a closer look

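The response to the SIRT3 shRNAs differed between Karpas422, OCI-Ly1 and HBL1 for 7 of the 10 factors by the limma F test on the interaction, where 41.8% of all genes tested passed. The adjusted p was 3.73e-06 for BACH2, 0.000244 for EBF1, 0.000581 for POU2AF1, 0.00129 for PAX5, 0.00217 for PRDM1, 0.0106 for IRF8 and 0.0253 for BCL6. By the same test BCL6 did not pass without replicate 3 (adjusted p = 0.0627), nor IRF8 without replicate 2 (adjusted p = 0.0512). Without replicate 1 BACH2 alone passed. BACH2 is the 1 factor called in opposite directions, lower in Karpas422 and HBL1 and, with shSIRT3-2, higher in OCI-Ly1. With 1 line per subtype, the line and the subtype cannot be told apart.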

How the results depend on the processing

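Of 1568 alternative values for 116 fold changes of the factors, 1511 stayed on their side of the call, 43 lost it and 14 gained it. The sign changed in 40 values of 23 fold changes, with adjusted p of at least 0.156 in each. Over the 3 lines the number of factors called with shSIRT3-1 was 1, and it was 0 after quantile normalization, 2 in a fit of the 18 libraries compared, 4 without OCI-Ly1, 0 without HBL1, and 0 without any 1 replicate number. With shSIRT3-2 it was 3, and 6 without OCI-Ly1 and 2 to 3 without a replicate number. Between the shRNAs it was 0, and 1 without OCI-Ly1 and 0 without a replicate number. The 20 calls within lines became 8 to 17 without a replicate number, of which 8, 14 and 15 of the original 20 were kept without replicate 1, 2 and 3. They became 21 without HBL1 shSIRT3-1 replicate 3. Of the 20, 18 were kept in a model of 9 groups and 19 without a filter on low values. The 7 interactions became 1 to 7 without a replicate number, where 348 to 4709 of all genes passed in place of 5471. The 7 without replicate 3 held IRF4 in place of BCL6. The 22 calls between control lines became 16 to 18 without a replicate number. These fits hold fewer samples. In those of the control lines PRDM1 was not tested, and IRF4 was not tested without replicate 2, because fewer than 3 libraries reached 1 CPM. Part of the drop from 22 is thus calls that were not tested. For Karpas422 against OCI-Ly1 the PRDM1 call was lost with a pseudocount of 1 and in the model of 9 groups, and the SPIB call without a filter, without a variance trend and without replicate 1 or 3.

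The replicate numbers were not taken as pairs, since the labels do not tie them to a culture and 26 of 27 same-numbered pairs of libraries in a line, not all, had a correlation of deviations above 0.1 (lowest 0.0144). With the replicate block the counts were 1, 3, 0, 20 and 8 in place of 1, 3, 0, 20 and 7, and IRF4 was the interaction added (adjusted p = 0.0135). The reads on genes, 28694398 at the fewest, put PRDM1 in OCI-Ly1 and IRF4 in Karpas422 near the level of 3 reads, where no fold can be read.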
